A study of Homo sapiens with 6 samples.

Results

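Galectins are small proteins that bind beta-galactosides on glycoproteins and glycolipids. The galectin family genes were described on 6 microarrays of Ishikawa H cells, an endometrial cancer line. A gene was a member if the platform annotation gave a row of the array table its symbol and no other, and of several such rows the one with the highest mean would have been kept. Of 9 family symbols sought, 7 had such a row, 1 each, among the 14232 genes tested. These were LGALS1, LGALS2, LGALS3, LGALS4, LGALS12 and LGALS14, which encode galectins, and LGALS3BP, which encodes a secreted glycoprotein that galectins bind. LGALS8 appeared in 2 rows that were each shared with another gene, and no row named LGALS9.

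Galectins share a carbohydrate recognition domain. Some, such as galectin-1 and galectin-2, carry it once and pair into dimers, others, such as galectin-4, galectin-8 and galectin-9, carry it in tandem, and galectin-3 joins it to a long flexible tail. They are made in the cytosol, leave the cell without a signal peptide, cross-link glycans at the cell surface and also act inside the cell. Galectin-1 is linked to tumour invasion and to signalling through PI3K and AKT.

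The 3 MTDH knockdown arrays came from cells with a stable short hairpin RNA against MTDH (metadherin, a protein linked to tumour progression and drug resistance). The 3 MTDH control arrays came from cells that the labels call control only and that the study describes as carrying a control hairpin RNA. Both groups were Ishikawa H cells from a grade 1 endometrioid adenocarcinoma, labelled with the p53 mutation G186T. They were grown in the same medium and, apart from selection with puromycin, given no drug. According to the labels of all 6 arrays, puromycin-resistant cells were expanded as individual clones, so a difference between the groups cannot be told apart from a difference between clones, and all p-values below describe the variation among these 6 arrays alone. The question was whether galectin transcripts changed when MTDH was depleted. In such bulk RNA, fewer cells that carry a transcript and less of it per cell cannot be told apart.

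MTDH itself read 5.77, 5.89 and 5.84 in the knockdown arrays, against 6.89, 7.04 and 6.63 in the controls, a log2 difference of -1.02 (limma, adjusted p = 0.029). This call was lost with median centring (adjusted p = 0.096) and in 4 of the 6 fits with 1 array left out (adjusted p = 0.11 to 0.16), without control replicate 1 or any 1 knockdown replicate, where the difference stayed between -1.04 and -0.99. Among marker genes of cell types, all 6 epithelial markers had means above the upper quartile of every array, while the 4 measured blood markers, the 3 endothelial markers and 3 of the 4 measured fibroblast and muscle markers lay below every array median (4.59 to 4.86). Control replicate 3 stood apart, correlating with the other arrays at 0.900 to 0.955 across genes, whereas no other pair lay below 0.959. The deposited table also had a step in row order. In the 8020 genes after it, the median log2 difference of knockdown minus control was -0.16, and in the 6212 genes before it the median was 0.05. The step was located by control replicate 3 minus knockdown replicate 2, both compared here, so these medians partly follow from that choice. Rows ran largely by chromosome. All 7 galectin family rows, on chromosomes 11 to 22, lay after the step, and MTDH, on chromosome 8, before it.

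No galectin family member passed the test. At an adjusted p under 0.05, limma called 0 of the 7 members, against 0.597% of all genes. At an unadjusted p under 0.05 it called 1 member, LGALS2, where 14.1% of all genes reached that level. LGALS2 was also the one member of 7 whose groups were fully separate, which held for 20.0% of the genes tested. Of the 7 members, 6 had a log2 difference below 0, as had 60.7% of all genes and 73.6% of those after the step, and this count was 7 after quantile normalization between arrays and 5 after normalization within the 2 parts of the table. The median over the members was -0.23, where the median over all genes was -0.08.

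**Figure D1:**
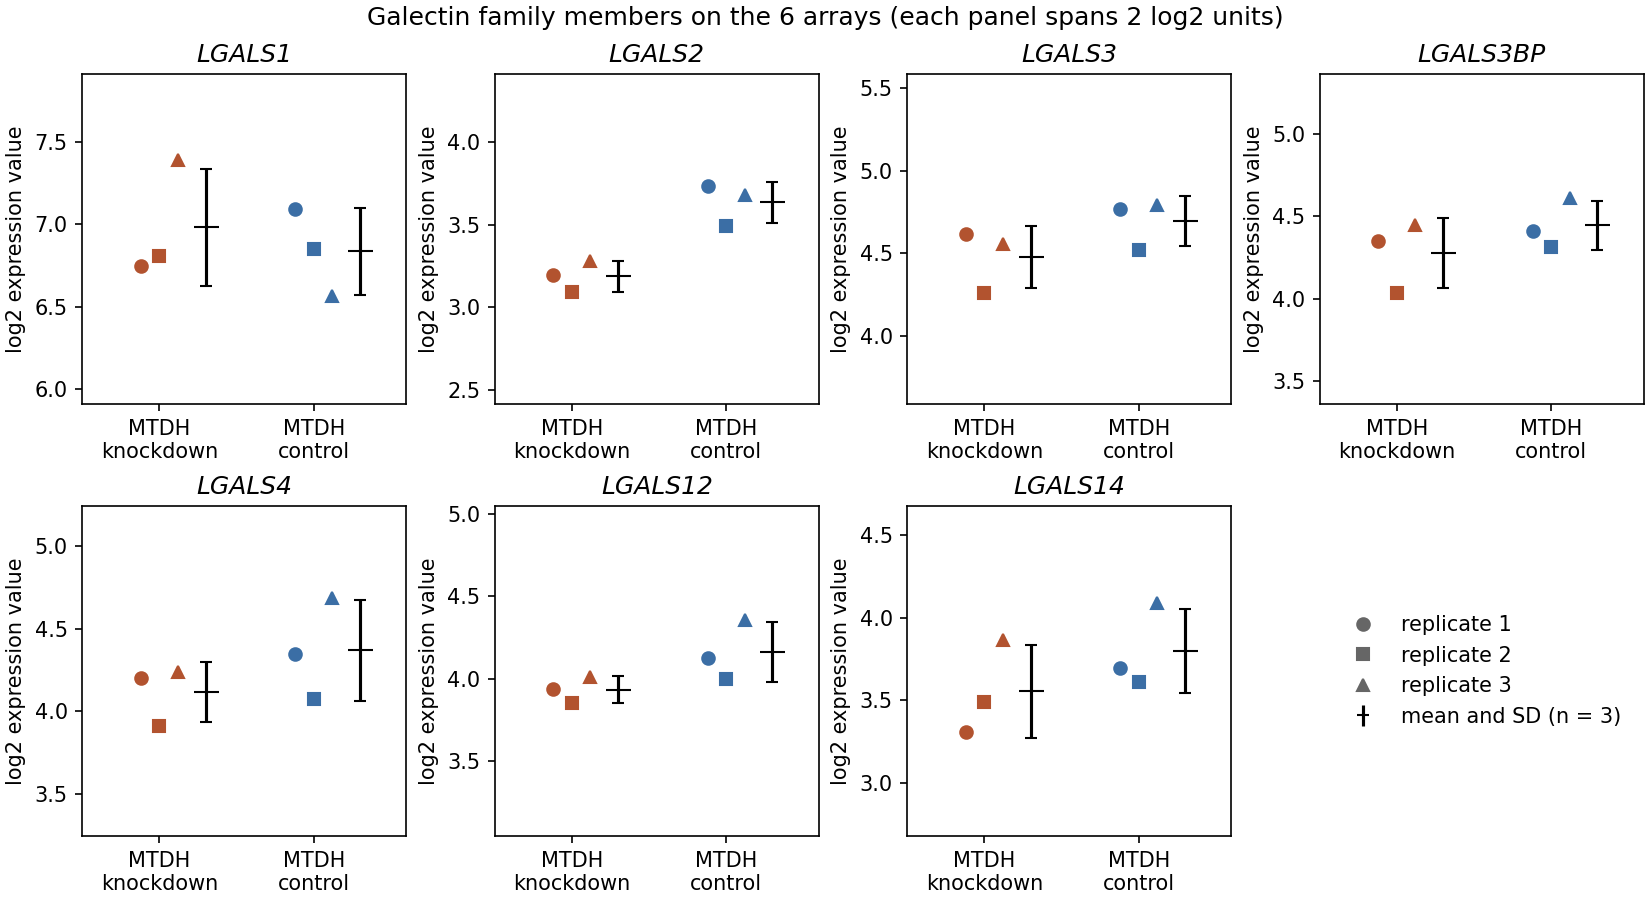
Log2 expression value of each of the 7 galectin family members (vertical axes, 2 log2 units each) in the 3 MTDH knockdown and 3 MTDH control arrays. Symbols give the replicate number and bars the mean and SD. The groups overlap for every member but LGALS2, whose knockdown arrays read 3.09 to 3.28 and whose control arrays read 3.49 to 3.73.

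LGALS1 encodes galectin-1. In another endometrial cancer line, not on these arrays, the study reported a marked fall of its mRNA and protein with the MTDH hairpin. The LGALS1 row, transcript cluster 3944882 on chromosome 22, read 6.75, 6.81 and 7.39 in the knockdown arrays, against 7.09, 6.85 and 6.57 in the controls. Both groups spread widely and overlapped, and the highest value was that of knockdown replicate 3. The means were 6.98 ± 0.36 in knockdown cells and 6.84 ± 0.26 in controls (SD, n = 3 each), a log2 difference of 0.15 (limma, adjusted p = 0.74). The 95% interval of that difference ran from -0.33 to 0.63. A fall of LGALS1 by more than 0.33 lay outside it in this fit of the deposited values of all 6 arrays. The interval took no account of differences between clones, so such a fall was not excluded. After quantile normalization between arrays the difference was -0.03. In the deposited values the sign rested on knockdown replicate 3, without which the difference was -0.06. It was 0.01 without control replicate 3 and 0.27 without control replicate 1. LGALS1 was the one member above the upper quartile of each array, and among the 1209 genes after the step with a mean between 6 and 8 the median difference was 0.01.

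LGALS2 encodes galectin-2, a close relative of galectin-1 found mainly in the gut. It lies on chromosome 22 and was read by transcript cluster 3960174. It read 3.20, 3.09 and 3.28 in the knockdown arrays, against 3.73, 3.49 and 3.68 in the controls. Every knockdown array lay below every control array. The means were 3.19 ± 0.09 in knockdown cells and 3.64 ± 0.13 in controls (SD, n = 3 each). The log2 difference was -0.45 with a 95% interval from -0.80 to -0.09, which took no account of the number of genes, and it did not pass over all genes (limma, adjusted p = 0.27). Dropping single arrays moved it no further than -0.52 and -0.40, and it was -0.27 after quantile normalization within the 2 parts of the table. The row was dim, below the lower quartile of every array, and no detection values were used here.

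LGALS3 encodes galectin-3, which is found in many epithelia and acts in cell adhesion and against cell death. Its row (transcript cluster 3536706, chromosome 14) read 4.62, 4.26 and 4.55 in knockdown cells, against 4.77, 4.52 and 4.80 in controls. The groups overlapped, since knockdown replicates 1 and 3 lay above control replicate 2. The log2 difference was -0.22 with an interval from -0.60 to 0.16 (limma, adjusted p = 0.55), and after normalization within the 2 parts it was -0.02. The row lay close to the median of the arrays.

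LGALS3BP, the galectin ligand, is an interferon-induced gene. It read 4.35, 4.04 and 4.45 in knockdown cells, against 4.41, 4.32 and 4.61 in controls (transcript cluster 3772719, chromosome 17). The groups overlapped. The log2 difference of -0.17 had an interval from -0.56 to 0.22 (limma, adjusted p = 0.64) and turned to 0.03 after quantile normalization within the 2 parts of the table.

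The promoters of LGALS2 and LGALS3 are shown because the groups were apart for LGALS2 and overlapped for LGALS3, the galectin best known from epithelia. Promoter sequences from RefSeq (GRCh38.p14) matched 7 of the 9 symbols, all but LGALS1 and LGALS12. The sequences give the 250 bases before the start of transcription, and capitals mark a GC box, GGGCGG on either strand, the motif that Sp1 binds. LGALS2 spans chr22:37580088-37580337 on the minus strand and LGALS3 chr14:55129002-55129251 on the plus strand.
LGALS2: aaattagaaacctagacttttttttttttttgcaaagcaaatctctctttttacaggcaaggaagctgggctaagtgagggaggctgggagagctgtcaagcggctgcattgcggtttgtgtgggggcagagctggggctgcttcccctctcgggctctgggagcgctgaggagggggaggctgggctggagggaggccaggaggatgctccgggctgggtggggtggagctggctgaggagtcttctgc
LGALS3: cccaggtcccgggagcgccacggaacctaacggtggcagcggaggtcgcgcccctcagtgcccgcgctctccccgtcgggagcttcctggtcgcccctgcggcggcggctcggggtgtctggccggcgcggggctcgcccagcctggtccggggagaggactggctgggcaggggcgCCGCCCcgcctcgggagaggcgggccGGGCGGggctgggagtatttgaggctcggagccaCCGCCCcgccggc
The LGALS3 window held 3 GC boxes and 32 CpG dinucleotides, more CpG than 90.5% of 35116 RefSeq promoter windows of that length. The LGALS2 window held 5 CpG dinucleotides and no GC box, and the windows of LGALS3BP, LGALS4, LGALS9 and LGALS14 held no GC box either. LGALS8 had several windows, and the one at chr1:236523732-236523981 held 1 GC box. A GC box was found in 42.6% of all windows. The windows of LGALS2 and LGALS3 held no TATA box (TATAAA, either strand), which 10.7% of all windows did. The LGALS8 window at chr1:236517964-236518213 held 2. No match to TTCNNNGAA, a STAT motif found in 6.57% of windows, occurred in the windows of LGALS2, LGALS3, LGALS3BP, LGALS4 and LGALS14. Other motifs linked to interferon were not sought, so this absence does not tell whether the LGALS3BP window holds an interferon-responsive element.

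LGALS4, LGALS12 and LGALS14 encode galectins known mainly from other tissues. Galectin-4 is made by gut epithelium, galectin-12 by fat cells and galectin-14 by the placenta. LGALS4 read 4.20, 3.91 and 4.24 in knockdown cells, against 4.34, 4.08 and 4.69 in controls (transcript cluster 3861557, chromosome 19), a log2 difference of -0.25 with an interval from -0.69 to 0.18 (limma, adjusted p = 0.54). LGALS12 read 3.94, 3.85 and 4.01 in knockdown cells, against 4.13, 4.0 and 4.35 in controls (transcript cluster 3333877, chromosome 11). Its arrays came near to separating, with only knockdown replicate 3 above control replicate 2, and its difference was -0.23 with an interval from -0.59 to 0.14 (limma, adjusted p = 0.52). LGALS14 read 3.31, 3.49 and 3.86 in knockdown cells, against 3.70, 3.61 and 4.09 in controls, and the groups overlapped (transcript cluster 3833238, chromosome 19). Its difference was -0.24 with an interval from -0.69 to 0.20 (limma, adjusted p = 0.56). Control replicate 3 gave the highest value in all 3 genes. Without it the differences were -0.09 for LGALS4, -0.13 for LGALS12 and -0.10 for LGALS14.

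LGALS14 belongs to a cluster of near copies on chromosome 19, and LGALS13 and LGALS16 share 1 row of the table, so that their values could not be assigned to either gene. The same stretch before the start of each gene is printed to show how alike the copies are, with capitals for bases that differ from LGALS14 (RefSeq, GRCh38.p14, plus strand). It lies at chr19:39704291-39704390 for LGALS14, chr19:39602332-39602431 for LGALS13 and chr19:39655725-39655824 for LGALS16.
LGALS14: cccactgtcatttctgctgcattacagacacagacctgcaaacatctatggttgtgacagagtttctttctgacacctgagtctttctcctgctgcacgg
LGALS13: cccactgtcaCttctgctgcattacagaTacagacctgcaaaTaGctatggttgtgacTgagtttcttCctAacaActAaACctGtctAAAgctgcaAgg
LGALS16: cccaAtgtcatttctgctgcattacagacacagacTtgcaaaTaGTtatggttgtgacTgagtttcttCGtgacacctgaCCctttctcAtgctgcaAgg
Over the whole 250 bases before the start, 86.3% of the aligned bases of LGALS14 were identical in LGALS13 and 87.1% in LGALS16. Whether the probes of the LGALS14 row also read its neighbours is not known from the files, and its value is uncertain for that reason.

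**Figure D2:**
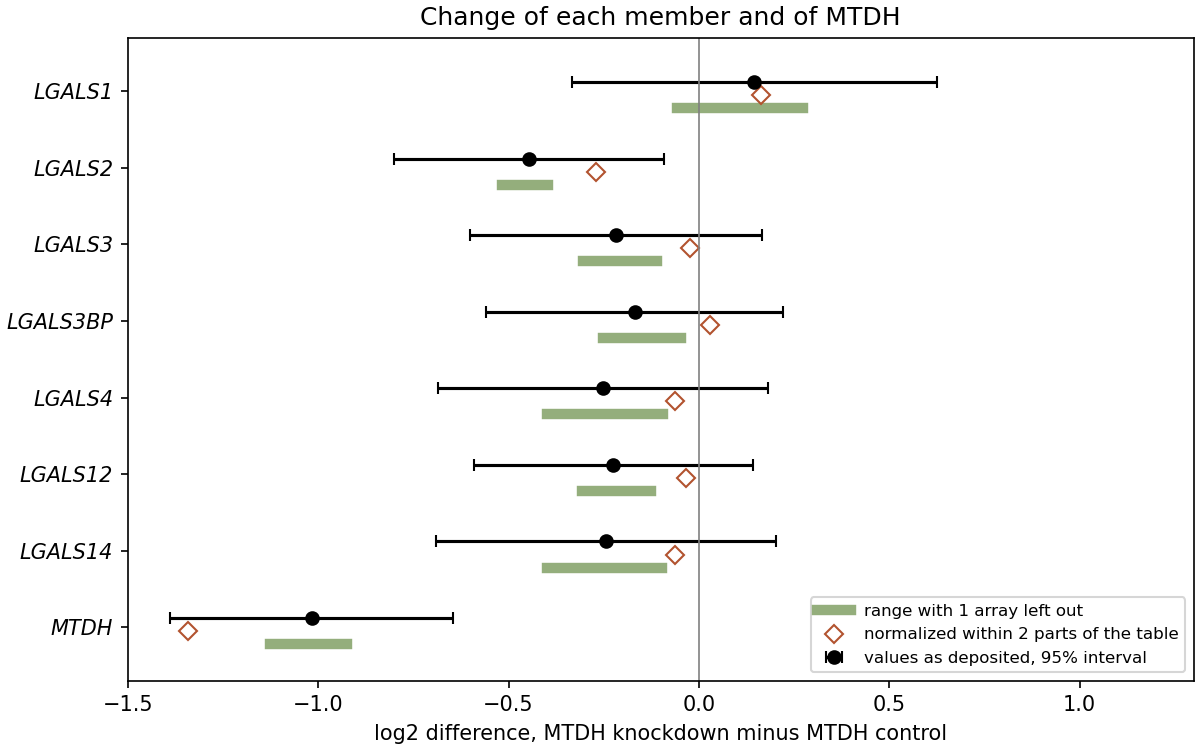
Log2 difference of MTDH knockdown minus MTDH control (horizontal axis) for the 7 galectin family members and MTDH. Black points and bars give the deposited values with their 95% interval, green bars the range with 1 array left out, and open diamonds the value after quantile normalization within the 2 parts of the table. All member intervals but that of LGALS2 (-0.80 to -0.09) span 0, and the diamonds of LGALS3, LGALS3BP, LGALS4, LGALS12 and LGALS14 lie between -0.06 and 0.03.

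Of the 6 members other than LGALS1, all but LGALS2 moved across the arrays much like other genes of their brightness in the same part of the table. The means of the 6 lay between 3.41 and 4.59, and their differences between -0.45 and -0.17 had a median of -0.23. The 4192 genes after the step with a mean between 3 and 5 had a median of -0.21, and 83.2% of them were below 0. Control replicate 3 gave the highest value in 5 of the 6 members and in 66.9% of those genes. Knockdown replicate 2 gave the lowest value in 5 of the 6 members and in 52.5% of those genes. LGALS3, LGALS3BP, LGALS4, LGALS12 and LGALS14 differed from the median of those genes by at most 0.04, whereas LGALS2 lay 0.24 below it, lower than all but 9.69% of them.

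**Figure D3:**
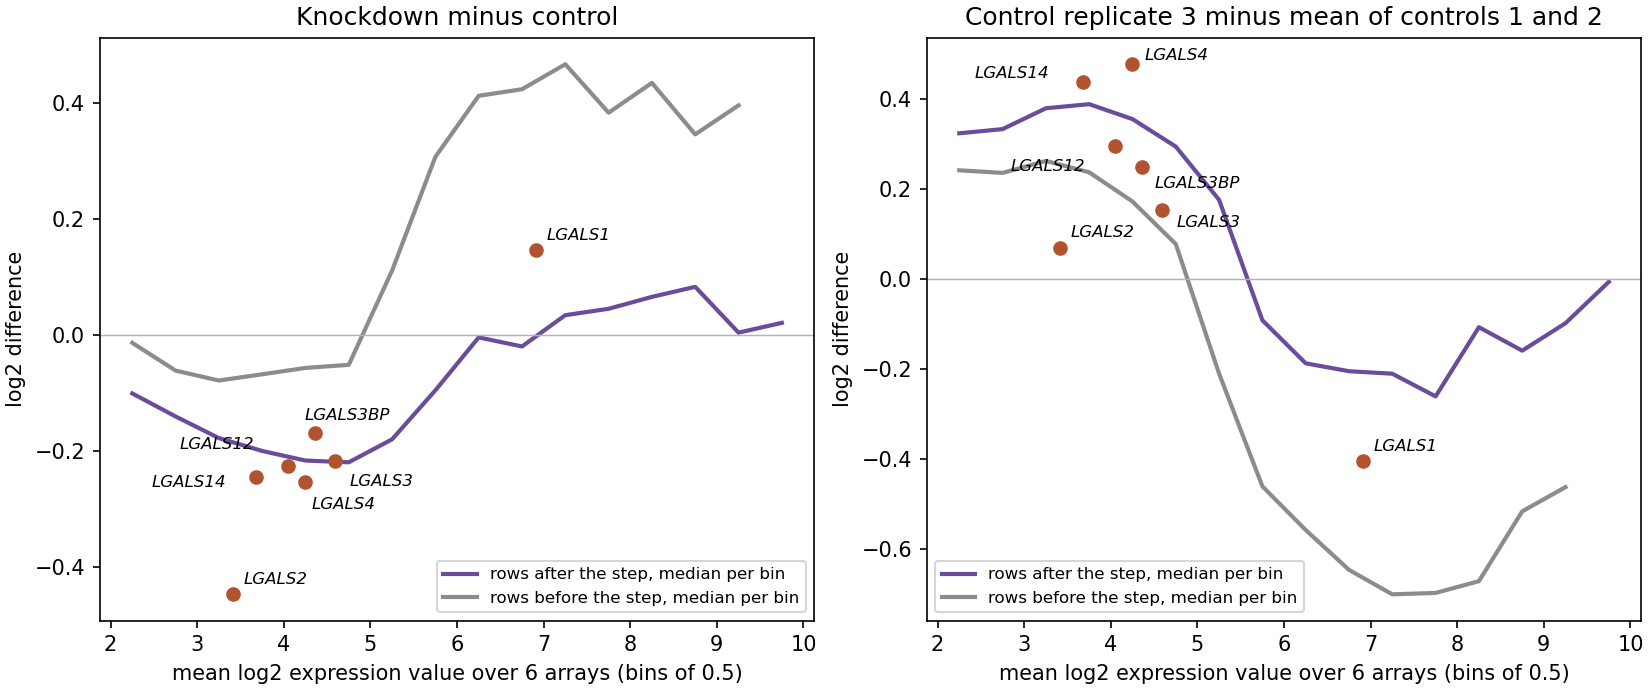
Log2 differences (vertical axes) against the mean log2 expression value over the 6 arrays (horizontal axes), with lines for the median of all genes per bin of 0.5, drawn apart for rows after and before the step, and points for the galectin family members. Left, MTDH knockdown minus control: 5 members lie near the line of their part at about -0.2 while LGALS2 lies below it at -0.45. Right, control replicate 3 minus the mean of the other controls, in which dim genes read high and bright genes read low.

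Among the other family rows, 2 more carried a single symbol, and neither passed. CLC, which encodes galectin-10, the crystal-forming protein of eosinophils, read 3.21, 2.43 and 3.30 in knockdown cells, against 3.61, 3.25 and 3.99 in controls. Its groups overlapped, with a log2 difference of -0.64 (limma, adjusted p = 0.31) that was -0.36 without knockdown replicate 2, and it too was dim and lay after the step. LGALSL, which encodes a galectin-related protein, read 7.62, 7.66 and 7.78 in knockdown cells, against 7.60, 7.88 and 6.90 in controls, a difference of 0.22 (limma, adjusted p = 0.65) in which control replicate 3 was the lowest array. That array set its sign, the difference being -0.06 without it, and it was -0.20 after quantile normalization within the 2 parts. The row shared by LGALS8 and its antisense gene LGALS8-AS1 had a difference of -0.17 ± 0.20 (SE), and the row shared by LGALS8 and HEATR1 had 0.25 ± 0.23 (SE). Neither passed in a fit of all rows (limma, adjusted p = 0.71 and 0.64), and the probes' target could not be told apart, so that these values were not assigned to LGALS8, the galectin that marks damaged vesicles.

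The genes with a pattern most like that of LGALS1 and of LGALS2 were sought among all genes, by the root mean square difference of the log2 values over the 6 arrays after removal of each gene's mean. For LGALS1 they were TTC5 (0.0449), OMD (0.0726) and CENPV (0.0728). For LGALS2 they were DLK2 (0.0424), MMP9 (0.0452) and TTC23 (0.0463). None of these 6 genes passed the test, and their log2 differences ran from 0.09 to 0.19 for the first 3 and from -0.43 to -0.38 for the others. They were picked for likeness over the same 6 arrays, so like differences and test results follow from the choice.

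Of 66 genes linked to galectins, in 5 lists, 56 were measured and 1 was called, where 0.597% of all genes were called and 60.7% were below 0. Counter-receptors and extracellular ligands, the glycoproteins that galectins bind, gave 0 calls among 23 measured genes, with 15 below 0 and a median log2 difference of -0.13. FN1, which encodes fibronectin, had -0.66 (limma, adjusted p = 0.38), -0.33 without knockdown replicate 3, -0.98 without knockdown replicate 2 and -1.04 after quantile normalization within the 2 parts. ITGAV, the integrin alpha V gene, had 0.65 (limma, adjusted p = 0.25), and 0.42 without control replicate 3 or 0.29 after normalization within the 2 parts. FN1 and ITGAV lay before the step. Genes there had a median difference of 0.31 at means of 5.5 to 6, as for FN1, and 0.42 at 6.5 to 7, as for ITGAV.

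Enzymes that build or cap the glycans read by galectins gave 0 calls among 17 genes, with 6 below 0 and a median of 0.14. MGAT4A, which adds a branch to N-glycans, read 4.61 ± 0.32 in knockdown cells and 3.64 ± 0.43 in controls (SD, n = 3 each), a log2 difference of 0.97 without overlap (limma, adjusted p = 0.13). With 1 array left out its adjusted p ran from 0.029, without control replicate 2, to 0.50, without knockdown replicate 2. C1GALT1, which makes the core O-glycan, had 0.73 (limma, adjusted p = 0.32), and 0.34 without control replicate 3. Of the 17 genes, 8 lay after the step. MGAT4A and C1GALT1 lay before it. Genes there had a median difference of -0.06 at means of 4 to 4.5, as for MGAT4A, and 0.31 at 5.5 to 6, as for C1GALT1.

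Intracellular partners of galectins gave 0 calls among 5 measured genes, with 2 below 0 and a median of 0.09. The largest differences were 0.44 for CTNNB1, the beta-catenin gene, which was 0.10 without control replicate 3 and 0.67 without control replicate 2, and -0.21 for the survival gene BCL2, which was -0.02 after normalization within the 2 parts. CTNNB1 lay before the step, where genes with means of 6.5 to 7, like its own, had a median of 0.42. BCL2 lay after it, where genes with means of 4.5 to 5, like its own, had a median of -0.22. Interferon response genes, listed since LGALS3BP and LGALS9 are induced by interferon, gave 0 calls among 7, with 7 below 0 and a median of -0.24. The largest were -0.37 for IRF7 and -0.32 for OAS1, which were -0.17 and -0.10 without control replicate 3, and -0.57 and -0.50 without control replicate 2. After normalization within the 2 parts they were -0.27 and -0.16. Of the 7, 6 lay after the step, where 73.6% of all genes were below 0. Of the genes there with a mean between 3 and 5, 83.2% were below 0, with a median of -0.21. Genes there had a median of -0.18 at means of 5 to 5.5, as for IRF7, and -0.20 at 3.5 to 4, as for OAS1.

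The study set galectin-1 beside CALB1, which encodes the calcium buffer calbindin, and beside genes of invasion and PI3K signalling. All 4 measured genes of that list were below 0, with a median of -0.36. MMP2, MMP9 and AKT1 lay after the step, where 73.6% of all genes were below 0. Genes there had medians of -0.20, -0.22 and -0.10 at means of 3.5 to 4, 4 to 4.5 and 5.5 to 6, as for these genes in turn. CALB1 lay before the step, where genes with means of 3.5 to 4, like its own, had a median of -0.07. CALB1 fell. It read 3.01 ± 0.09 in knockdown cells and 4.18 ± 0.11 in controls (SD, n = 3 each), a log2 difference of -1.17 (limma, adjusted p = 0.010), which lost its call in 4 of the 6 fits with 1 array left out (adjusted p up to 0.072, without control replicate 1). MMP9, a gelatinase gene, had -0.38 (limma, adjusted p = 0.32), and -0.19 after normalization within the 2 parts. LGALS1 and CALB1 were thus measured on the same arrays at 0.15 and -1.17, and the difference between the changes of these genes was not tested.

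**Figure D4:**
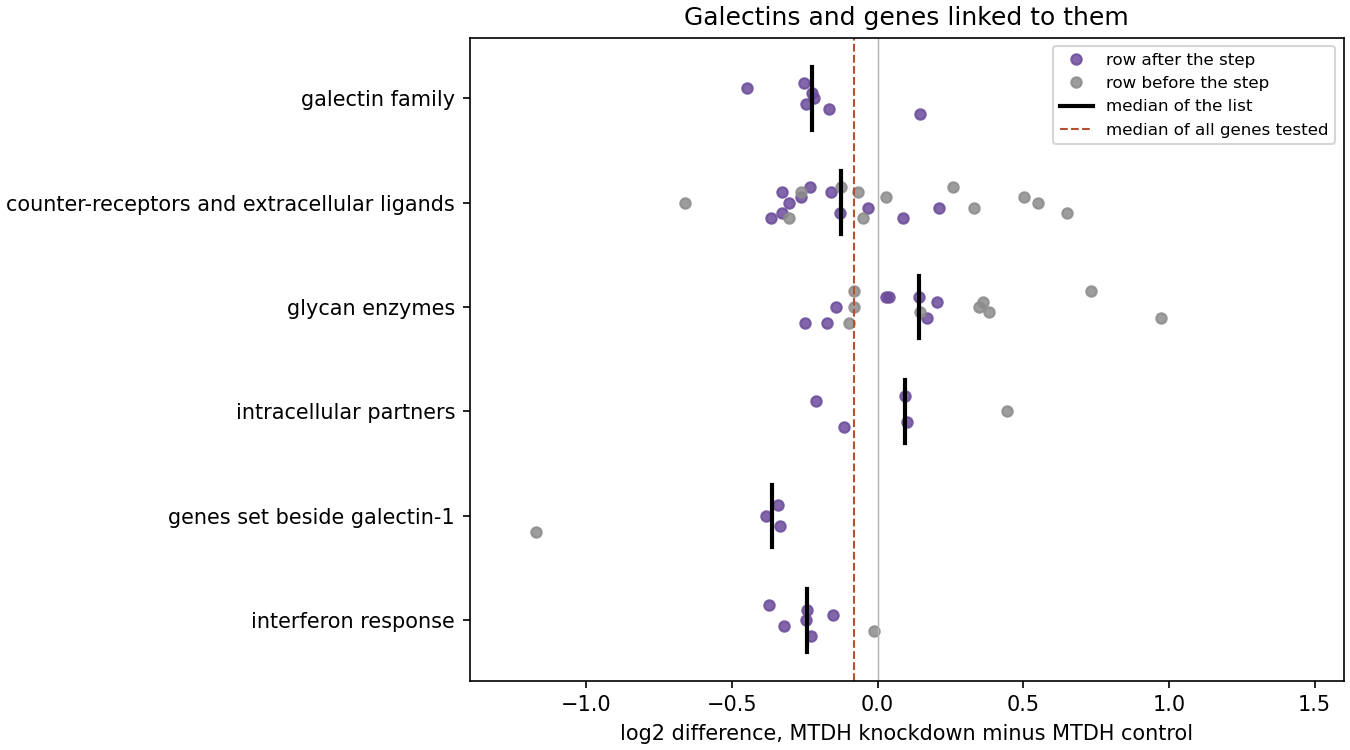
Log2 difference of MTDH knockdown minus control (horizontal axis) of each measured gene of the galectin family and of the 5 lists linked to it. Points are genes, coloured by their place before or after the step in row order, black bars are list medians and the dashed line is the median of all genes (-0.08). The point at -1.17 is CALB1, the one gene that passed the test.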

How the data were processed

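The data were 6 arrays of Ishikawa H cells, 3 MTDH knockdown and 3 MTDH control, grouped by their titles. Each array has a column of log2 values as the authors deposited them. The submitters' processing notes name Partek, and the sources used here give neither its version nor the background correction and normalization. Of 22011 rows, the platform annotation gave 14432 a single symbol and 2408 several, and did not list 5171. The row with the highest mean was kept per gene. The deposited values were fitted with limma 3.58.1 in R 4.3.3 over all 14232 genes, with Benjamini-Hochberg adjustment. The study names no test for its arrays. Intervals are 95% moderated intervals. With 3 arrays per group, their number sets the precision. The step in row order, after row 9325, was the split that left the least squared deviation of control replicate 3 minus knockdown replicate 2, and was tested on simulated data, as was the fit. Named were all members, MTDH, other family rows, called genes of the lists or, where a list had none, its 2 largest differences, and the 3 genes most like LGALS1 and LGALS2. Alternatives covered the rows, filter, normalization, prior, block, fold threshold and single arrays. Members and lists were chosen with earlier results of these data known. Chromosomes came from RefSeq.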

Additional observations from a re-analysis of the deposited data

How the results depend on the processing

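None of the 7 members passed under any alternative run. These were averaging a gene's rows, a fit of the whole table, removal of the dimmest 30% of genes (which kept 4 members), quantile normalization, median centring, a trend with a robust prior, the replicate block, treat against a fold of 1.5, leaving out 1 array and, chosen after seeing the data, quantile normalization and median centring within 2 parts of the table. The sign turned for LGALS1 after quantile normalization (-0.033) and without knockdown replicate 3 (-0.058, the low end of -0.058 to 0.27 with 1 array left out), and for LGALS3BP after quantile normalization (0.030) and median centring (0.026) within 2 parts. The cause was not tested. The count of all genes called, 85, was 19 with the whole table, 48 with median centring, 4 with treat and 12 to 233 with 1 array left out (12 without control replicate 1, 233 without control replicate 2). MTDH had -0.92 with median centring (adjusted p = 0.096) and -1.13 to -0.92 with 1 array left out, where its adjusted p reached 0.16, without control replicate 1. Its call was also lost without any 1 of the knockdown replicates. The count of list genes called was 0 to 2 with 1 array left out, 0 without control replicate 1 or any 1 knockdown replicate and 2, MGAT4A added, without control replicate 2. Whether the replicate numbers pair the arrays was not settled. Deviations of same-numbered arrays correlated at -0.10, 0.47 and 0.31 for replicates 1, 2 and 3. Of the 6 arrays, 4 correlated best with their own number, those of replicates 2 and 3. With the replicate block 364 genes and 2 list genes, CALB1 and MGAT4A, were called, and no member (lowest adjusted p = 0.12, LGALS2). The median of all genes was 0.03 after median centring within 2 parts, in place of -0.08.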

Other observations

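Rows of the chromosome 19 galectin cluster that name several genes were read with no gene assigned. The row shared by LGALS13, LGALS16 and LOC100129935 read 2.12, 2.42 and 2.62 in knockdown arrays, against 1.93, 2.22 and 2.31 in controls. The row shared by LGALS17A and LOC100129935 read 3.08, 3.20 and 3.40 in knockdown arrays, against 3.65, 3.13 and 3.46 in controls. Both sets overlapped between the groups.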
